A study of Arabidopsis thaliana with 16 samples.

Results

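The 10 genes described here encode enzymes of the alternative respiratory pathway of plant mitochondria, stress-responsive mitochondrial proteins, and transcription factors that switch such genes on. They were taken by locus code from a table of 27826 probe sets, and all 10 were found: AOX1A (AT3G22370), AOX1C (AT3G27620), AOX1D (AT1G32350), BCS1 (AT3G50930, also called OM66), UPOX (AT2G21640), NDA1 (AT1G07180), NDA2 (AT2G29990), NDB2 (AT4G05020), NAC013 (AT1G32870) and NAC017 (AT1G34190). Their transcripts were measured in Arabidopsis thaliana leaves on 16 Affymetrix arrays, 4 for each of 4 genotypes. They were the wild type (WT), amiNAA10, which carries an artificial microRNA against NAA10, and insertion mutants of HYPK, labelled as T-DNA knockouts, with the insertion either in the first exon (exon 1 line) or in the second (exon 2 line). NAA10 is the catalytic subunit of the N-terminal acetyltransferase NatA, and HYPK is a small protein that binds NatA. The series names the HYPK lines hypk-1 and hypk-3 without saying which carries which insertion. Plants were 6 weeks old and untreated, and had grown on soil in short days of 8.5 h, at 22 °C in the light and 18 °C in the dark. Not given in the sources used here were the accession of the plants, the promoter of the artificial microRNA and the number of lines or plants behind the samples. P-values therefore reflect only how far samples of the same genotype differ. For each gene that spread was pooled over the 4 genotypes, also where their spreads were unequal, and some of it may be technical.

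Alternative oxidases (AOX) pass electrons from ubiquinol straight to oxygen, bypassing the proton-pumping cytochrome complexes. Type II NAD(P)H dehydrogenases likewise feed electrons into the chain without pumping protons, the NDA enzymes from the matrix side of the inner membrane and the NDB enzymes from the outer side. When mitochondria are disturbed, the membrane-anchored factors NAC017 and NAC013 are known to be released and to induce a set of nuclear genes, the mitochondrial dysfunction stimulon, of which AOX1A, UPOX and BCS1 are standard markers.

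The values are robust multi-array averages (RMA) on the log2 scale, so that a difference of 1 is a 2-fold change, and levels of different genes are not compared. Differences are first group minus second group, with standard errors and adjusted p-values from limma across all probe sets, and a gene was called at an adjusted p under 0.05. NAA10 was at 2.89 ± 0.16 (SD, n = 4) in amiNAA10 and 4.96 ± 0.10 (SD, n = 4) in WT. HYPK was at 5.66 ± 0.08 (SD, n = 4) in WT, 4.72 ± 0.14 (SD, n = 4) in the exon 1 line and 5.40 ± 0.27 (SD, n = 4) in the exon 2 line, where its difference from WT was not called (adjusted p = 0.191), so it does not check the exon 2 label. Arrays of one genotype correlated with r of at least 0.974 over all probe sets, and replicate 4 of the exon 2 line stood apart from its group. Mesophyll markers were bright on every array, with a list mean of 9.97 to 10.6, while the mean of 3 flower markers stayed between 1.31 and 1.76. That is under 1.83, the level that bounds the dimmest 30% of probe sets and serves here as a guide to signals that may be background.

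Of the 10 genes, 6 rose and 1 fell in amiNAA10, and 6 rose and 1 fell in the mean of both HYPK lines. The same names stood in both counts: AOX1A, AOX1D, BCS1, NDA2, NDB2 and NAC017 were higher, NDA1 was lower, and AOX1C, UPOX and NAC013 were not called. Both comparisons use the same WT arrays. Of all probe sets 30.7% were called in amiNAA10, 15.4% as higher and 15.4% as lower. For both HYPK lines 22.7% of all probe sets were called, 11.2% as higher and 11.5% as lower. In amiNAA10 all arrays of 7 of the 10 genes lay outside the WT range, as for 30.6% of all probe sets, and in the HYPK lines those of 3 genes, as for 12.4%. Called and changed at least 2-fold were 6 of the 10 in amiNAA10, beside 8.12% of all probe sets, and 4 in the HYPK lines, beside 3.66%. The median difference of the 10 genes was 0.88 in amiNAA10 and 0.65 in the HYPK lines, beside -0.02 and -0.01 over all probe sets. These genes were chosen with earlier results of these data known, so the counts describe them and do not set them apart.

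**Figure D1:**
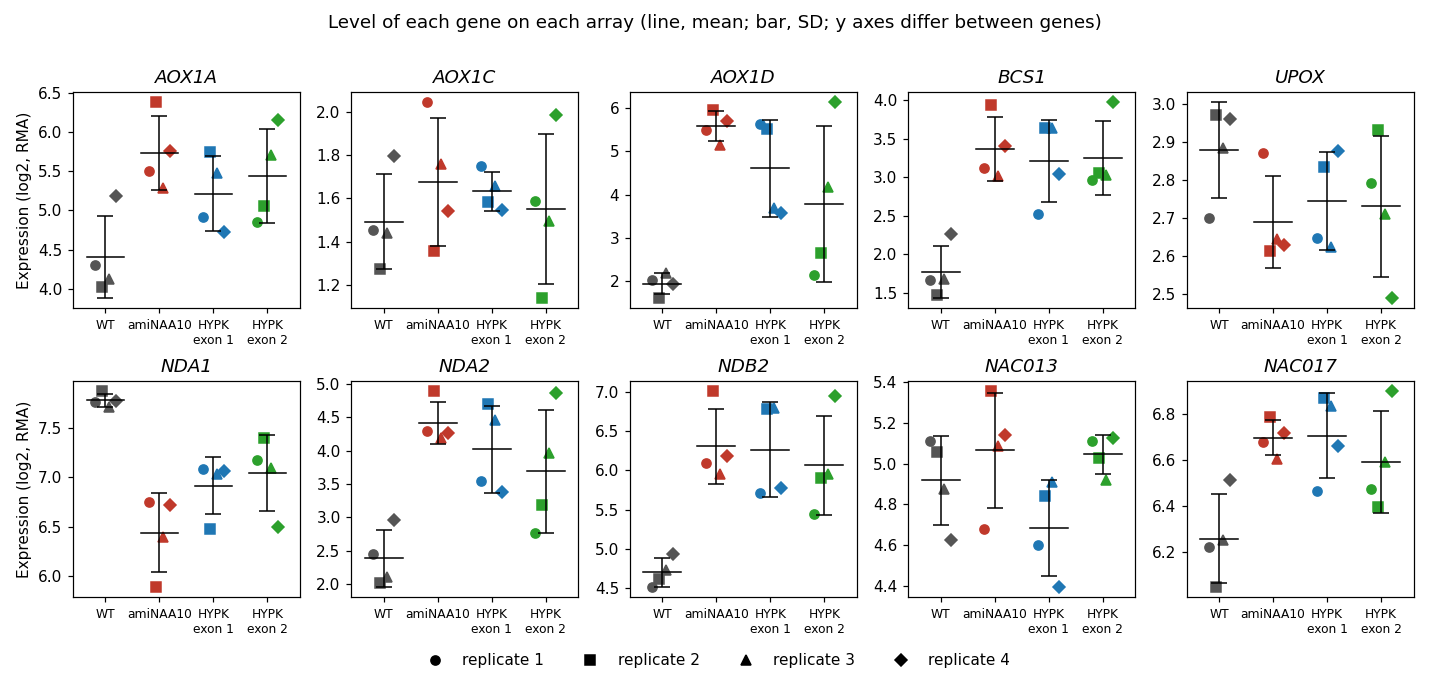
Expression on the log2 scale (y axis, RMA value) of each of the 10 genes on each array, by genotype (x axis). Points are arrays with a marker per replicate number, lines are means and bars are SD over 4 arrays. All amiNAA10 arrays lie above all WT arrays for AOX1A, AOX1D, BCS1, NDA2, NDB2 and NAC017 and below them for NDA1, and the groups overlap for AOX1C, UPOX and NAC013.

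Among the terminal oxidases, AOX1D moved most, AOX1A moved less, and AOX1C stayed near the bottom of the scale. AOX1D, an isoform known to be low in unstressed leaves, stood at 2.03, 1.61, 2.19 and 1.95 on the 4 WT arrays and at 5.50, 5.96, 5.15 and 5.70 in amiNAA10. It stood at 5.63, 5.52, 3.69 and 3.58 in the exon 1 line and at 2.15, 2.65, 4.18 and 6.14 in the exon 2 line. The amiNAA10 and exon 1 arrays were all above WT, while the exon 2 line ran from an array within the WT range to the highest AOX1D value of the study. AOX1D was thus 12.4-fold higher in amiNAA10 than in WT (difference 3.63, SE 0.65, adjusted p = 0.00048) and 6.33-fold higher in the exon 1 line (2.66, SE 0.65, adjusted p = 0.0091). The mean of both HYPK lines was higher by 2.25 (SE 0.57, adjusted p = 0.00882). In the exon 2 line alone the difference of 1.83 (SE 0.65) was not called (adjusted p = 0.0723). It was 1.05 without exon 2 replicate 4 (adjusted p = 0.229), and was called without exon 2 replicate 1 (2.38, adjusted p = 0.0202) or without exon 2 replicate 2 (2.21, adjusted p = 0.0429). The WT mean of 1.94 lies close to the dim bound, so the fold values may be lower bounds.

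AOX1A, the main stress-inducible oxidase of Arabidopsis, stood at 4.30, 4.02, 4.13 and 5.18 in WT and at 5.51, 6.38, 5.29 and 5.75 in amiNAA10. Its values were 4.91, 5.74, 5.47 and 4.72 in the exon 1 line and 4.85, 5.05, 5.70 and 6.15 in the exon 2 line. Every amiNAA10 array was above every WT array, but only 2 arrays of each HYPK line were, because WT replicate 4 was high. The rise in amiNAA10 was 2.51-fold (1.33, SE 0.32, adjusted p = 0.0047). The rise in the mean of both HYPK lines was 1.89-fold (0.92, SE 0.28, adjusted p = 0.0252). It was no longer called when WT replicate 1, 2 or 3 was left out (0.88, 0.79 and 0.83, with adjusted p of 0.0676, 0.0899 and 0.0848). AOX1A taken in each line alone was called in the exon 2 line (1.03, adjusted p = 0.0428) and not in the exon 1 line (0.81, adjusted p = 0.091). The exon 2 call ended without exon 2 replicate 3 (adjusted p = 0.101) or 4 (adjusted p = 0.151), and without WT replicate 1 (0.0924), 2 (0.113) or 3 (0.11), again as adjusted p. It also ended with only the genotypes compared in the fit (adjusted p = 0.0713). The exon 1 difference was called without WT replicate 4 (1.06, adjusted p = 0.028) and with array weights (0.87, adjusted p = 0.0499).

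AOX1C, an isoform known to respond little to stress, ranged from 1.14 to 2.05 over all 16 arrays, and its mean lay under 1.83 in every genotype. Its difference from WT was 0.18 (SE 0.17, adjusted p = 0.48) in amiNAA10 and 0.10 (SE 0.15, adjusted p = 0.693) in the HYPK lines. At that brightness a change in transcript level could not be read reliably. Neither AOX1B, the reference neighbour of AOX1A on chromosome 3, nor AOX2 was called, and the mean of AOX2 lay under the dim bound in every genotype. AOX1B was at 2.17 ± 0.55 (SD, n = 4) in WT and 2.09 ± 0.24 (SD, n = 4) in amiNAA10, and AOX2 at 1.71 ± 0.21 and 1.73 ± 0.21 (SD, n = 4 each). The change among the 5 oxidase genes was therefore seen in 2 of them, AOX1A and AOX1D.

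**Figure D2:**
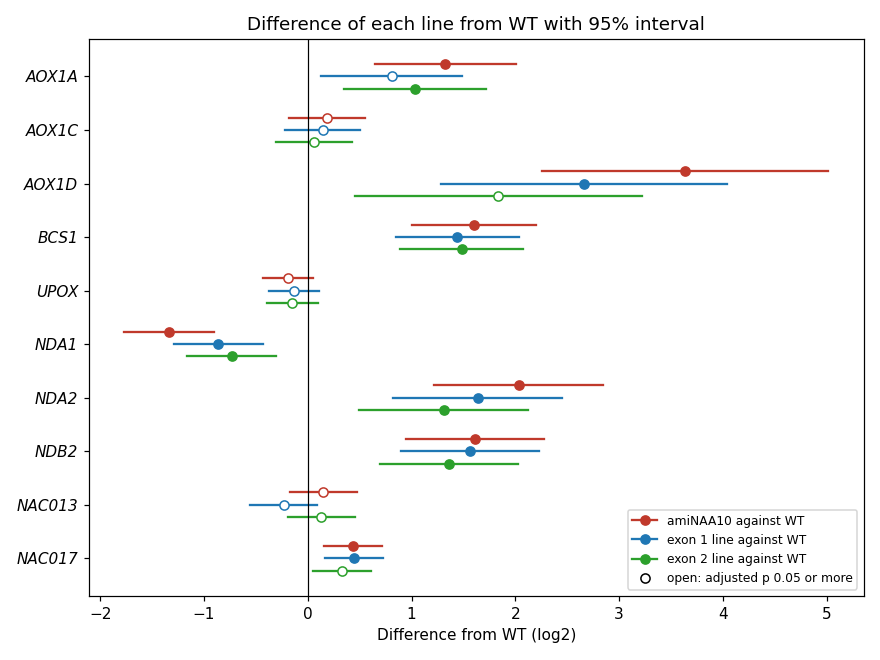
Difference of each line from WT on the log2 scale (x axis) for the 10 genes (y axis), with 95% intervals from limma. Filled points have an adjusted p under 0.05 and open points do not; AOX1D in amiNAA10 is farthest to the right at 3.63 and NDA1 in amiNAA10 farthest to the left at -1.34.

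The type II dehydrogenases moved in opposite directions: NDA2 and NDB2 rose, and NDA1 fell. NDA1, a matrix-side NAD(P)H dehydrogenase gene known to follow light and the time of day, stood at 7.76, 7.87, 7.71 and 7.77 in WT and at 6.75, 5.89, 6.40 and 6.72 in amiNAA10. Its values were 7.08, 6.48, 7.04 and 7.06 in the exon 1 line and 7.18, 7.39, 7.10 and 6.50 in the exon 2 line. All 12 arrays of the 3 lines lay below all WT arrays, whose own spread was narrow (SD 0.07, n = 4). NDA1 fell to 39.6% of the WT level in amiNAA10 (-1.34, SE 0.20, adjusted p = 0.000123) and to 57.5% in the HYPK lines (-0.80, SE 0.18, adjusted p = 0.0039). Each HYPK line was called on its own, at -0.86 in the exon 1 line (adjusted p = 0.00731) and -0.73 in the exon 2 line (adjusted p = 0.0241). The exon 2 call on NDA1 ended without exon 2 replicate 4 (-0.55, adjusted p = 0.0899), and when WT replicate 1 or 2 was left out (-0.74 and -0.70, with adjusted p of 0.0513 and 0.0589).

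NDA2, the paralogue of NDA1, stood at 2.45, 2.01, 2.1 and 2.96 in WT and at 4.30, 4.89, 4.20 and 4.27 in amiNAA10. Its values were 3.54, 4.70, 4.46 and 3.38 in the exon 1 line and 2.76, 3.18, 3.96 and 4.86 in the exon 2 line. Only exon 2 replicate 1 fell within the WT range. NDA2 rose 4.10-fold in amiNAA10 (2.03, SE 0.39, adjusted p = 0.000734), 3.11-fold in the exon 1 line (1.64, SE 0.39, adjusted p = 0.00705) and 2.48-fold in the exon 2 line (1.31, SE 0.39, adjusted p = 0.0321). The exon 2 call on NDA2 ended without exon 2 replicate 3 (1.22, adjusted p = 0.0784), without exon 2 replicate 4 (0.92, adjusted p = 0.113), and without WT replicate 1, 2 or 3 (1.33, 1.19 and 1.22, with adjusted p of 0.0613, 0.0846 and 0.0853), as well as with only the genotypes compared in the fit (adjusted p = 0.0686). The mean of both HYPK lines was higher by 1.47 (SE 0.33, adjusted p = 0.00458).

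NDB2, an external NADH dehydrogenase gene known to be induced together with AOX1A under stress, stood at 4.51, 4.62, 4.73 and 4.93 in WT and at 6.10, 7.01, 5.95 and 6.18 in amiNAA10. Its values were 5.71, 6.79, 6.79 and 5.77 in the exon 1 line and 5.45, 5.90, 5.95 and 6.95 in the exon 2 line. Every array of the 3 lines exceeded every WT array. NDB2 rose 3.05-fold in amiNAA10 (1.61, SE 0.31, adjusted p = 0.000938) and 2.76-fold in the HYPK lines (1.46, SE 0.27, adjusted p = 0.00118). It was called in each HYPK line alone, by 1.56 in the exon 1 line (adjusted p = 0.00257) and 1.36 in the exon 2 line (adjusted p = 0.00966).

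Of the 4 other type II dehydrogenase genes, none rose, while 2 fell in amiNAA10 and 1 in the HYPK lines. That is 50% and 25% of them, beside 30.7% and 22.7% of all probe sets. NDB1, a gene for an external NADPH dehydrogenase, fell by 0.57 (SE 0.16, adjusted p = 0.0099) in amiNAA10 and by 0.75 (SE 0.14, adjusted p = 0.00096) in the HYPK lines. NDC1, whose product is found in plastids as well as mitochondria, fell by 0.39 in amiNAA10 (SE 0.13, adjusted p = 0.0313), and its HYPK difference of -0.05 was not called (SE 0.11, adjusted p = 0.83). NDB3 and NDB4 lay near or under the dim bound, with genotype means of 1.59 to 1.86 and 1.65 to 1.85, so their changes could not be read reliably. Among the 7 genes of the family, 2 thus rose in amiNAA10, NDA2 and NDB2, and 3 fell, NDA1, NDB1 and NDC1.

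Of the stress protein genes, BCS1 rose in all 3 lines and UPOX in none. BCS1, an ATPase of the outer mitochondrial membrane whose transcript is also known to respond to salicylic acid, stood at 1.67, 1.48, 1.68 and 2.26 in WT and at 3.12, 3.94, 3.02 and 3.41 in amiNAA10. Its values were 2.53, 3.64, 3.64 and 3.05 in the exon 1 line and 2.96, 3.06, 3.03 and 3.98 in the exon 2 line. The groups did not overlap with WT in any line. BCS1 was higher by 1.60 (SE 0.28, adjusted p = 0.000395) in amiNAA10, by 1.44 (SE 0.28, adjusted p = 0.00206) in the exon 1 line and by 1.48 (SE 0.28, adjusted p = 0.00298) in the exon 2 line. For the mean of both HYPK lines the difference was 1.46 (SE 0.24, adjusted p = 0.000533), a 2.75-fold rise. The WT mean of 1.77 was under the dim bound, so these changes may be lower bounds.

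UPOX, named for its rise under oxidative stress, stood at 2.70, 2.97, 2.89 and 2.96 in WT and at 2.87, 2.61, 2.65 and 2.63 in amiNAA10. It ranged from 2.62 to 2.88 in the exon 1 line and from 2.49 to 2.93 in the exon 2 line. No array of any line exceeded the highest WT array. The difference was -0.19 in amiNAA10 (95% interval -0.43 to 0.05, adjusted p = 0.246) and -0.14 in the HYPK lines (95% interval -0.35 to 0.07, adjusted p = 0.349). Rises of the size seen for AOX1A or BCS1 lie outside both intervals.

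Of the membrane-anchored regulators, NAC017 rose slightly and NAC013 was not called. NAC017, the factor known to act upstream of AOX1A, stood at 6.22, 6.05, 6.25 and 6.51 in WT and at 6.68, 6.78, 6.60 and 6.72 in amiNAA10. Its values were 6.46, 6.87, 6.83 and 6.66 in the exon 1 line and 6.47, 6.40, 6.59 and 6.90 in the exon 2 line. All amiNAA10 arrays were above WT, while WT replicate 4 overlapped with both HYPK lines. NAC017 rose by 0.44 (SE 0.13, adjusted p = 0.0176) in amiNAA10, a 1.35-fold change, and by 0.39 (SE 0.11, adjusted p = 0.021) in the HYPK lines. The amiNAA10 call on NAC017 ended without amiNAA10 replicate 2 (0.41, adjusted p = 0.0508) and without WT replicate 2 (0.37, adjusted p = 0.0608). The HYPK call on NAC017 ended without WT replicate 1, 2 or 3 (0.38, 0.32 and 0.39, with adjusted p of 0.0569, 0.0859 and 0.0521). In single lines NAC017 was called in the exon 1 line (0.45, adjusted p = 0.0245) and not in the exon 2 line (0.33, adjusted p = 0.108). The exon 1 call on NAC017 ended without exon 1 replicate 2 or 3 (adjusted p of 0.0797 and 0.073) and without WT replicate 1, 2 or 3 (adjusted p of 0.0573, 0.078 and 0.0521).

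NAC013, itself known as a target in the stress response as well as a regulator of it, stood at 5.11, 5.06, 4.88 and 4.63 in WT and at 4.68, 5.36, 5.09 and 5.14 in amiNAA10. It stood at 4.60, 4.84, 4.91 and 4.39 in the exon 1 line and at 5.11, 5.03, 4.92 and 5.13 in the exon 2 line. All exon 1 arrays lay below all exon 2 arrays, and the WT arrays overlapped with both. The difference from WT was 0.15 in amiNAA10 (95% interval -0.17 to 0.47, adjusted p = 0.525) and -0.05 in the HYPK lines (95% interval -0.33 to 0.23, adjusted p = 0.834). Between the exon 1 line and the exon 2 line NAC013 differed by -0.36 (SE 0.15, adjusted p = 0.997). Groups without overlap made up 2.17% of all probe sets in that comparison.

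The HYPK lines were called separately to see what each carries on its own. In the exon 1 line 5 of the 10 genes rose and 1 fell, where 19.6% of all probe sets were called (9.69% higher, 9.89% lower). In the exon 2 line 4 rose and 1 fell, where 13.8% of all probe sets were called (7.03% higher, 6.82% lower). Of these, 4 changed at least 2-fold in the exon 1 line, beside 4.5% of all probe sets, and 4 in the exon 2 line, beside 2.88%. Arrays of 5 of the 10 genes lay outside the WT range in the exon 1 line, as for 22.4% of all probe sets, and of 3 in the exon 2 line, as for 17.2%. The exon 2 count of 5 called genes was 2 without exon 2 replicate 4, BCS1 (1.24, adjusted p = 0.011) and NDB2 (1.07, adjusted p = 0.0333). It was also 2 without WT replicate 1 or 2, and 3 without exon 2 replicate 3 or WT replicate 3. For the mean of both lines the count of 7 was 7 without exon 2 replicate 4. Directly between the exon 1 line and the exon 2 line limma called 0 of the 10 genes, beside 0.00719% of all probe sets, and 1 of the 10, NAC013, had an unadjusted p under 0.05 (0.0312), as had 4.38% of all probe sets. The intervals remained wide: AOX1D differed by 0.83 between the lines with a 95% interval of -0.55 to 2.21, and NDA2 by 0.33 with an interval of -0.49 to 1.14.

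The HYPK lines and amiNAA10 were compared directly to ask whether the responses differ in size. Limma called 0 of the 10 genes, beside 10.2% of all probe sets and 1.09% at 2-fold or more. An unadjusted p under 0.05 was found for 2 of the 10, AOX1D and NDA1, and for 23.8% of all probe sets. AOX1D was lower in the HYPK lines than in amiNAA10 by 1.39 (SE 0.57, 95% interval -2.58 to -0.19, adjusted p = 0.139). NDA1 was higher in the HYPK lines by 0.54 (SE 0.18, 95% interval 0.17 to 0.91, adjusted p = 0.062). Without exon 2 replicate 4 both were called, AOX1D at -1.78 (adjusted p = 0.0101) and NDA1 at 0.63 (adjusted p = 0.0151), and NDA1 also without exon 1 replicate 2 (0.61, adjusted p = 0.032). Other choices weakened both differences. Over all alternative fits, including those with 1 array left out, NDA1 ran from 0.36 to 0.64, with limma adjusted p up to 0.262. AOX1D ran from -1.78 to -1.11, with adjusted p up to 0.304. For BCS1 the 95% interval of the difference between the HYPK lines and amiNAA10 was -0.65 to 0.37, and for NDB2 it was -0.72 to 0.43. Smaller or larger rises in the HYPK lines within those intervals are not excluded.

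**Figure D3:**
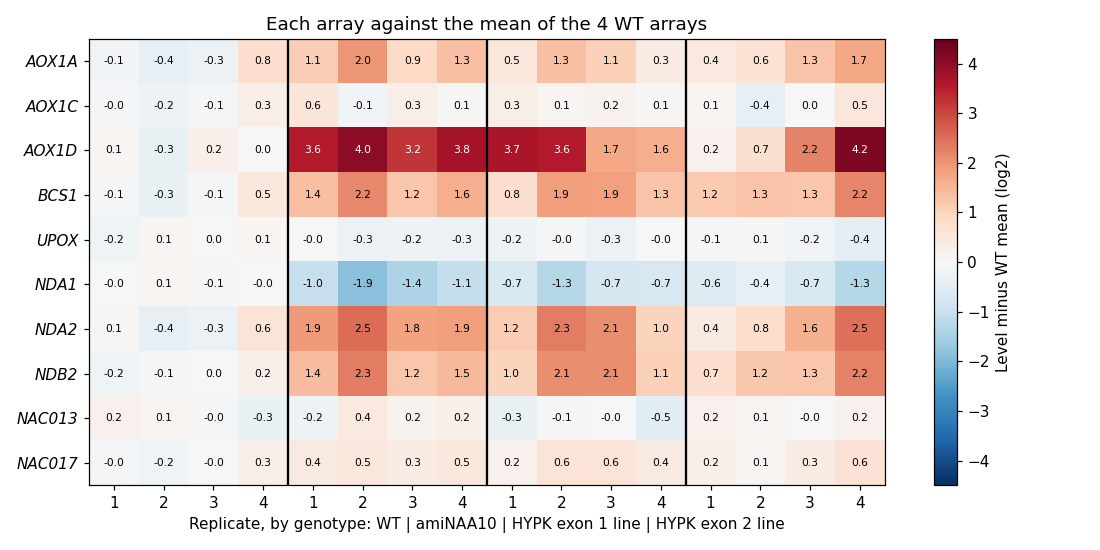
Level of each gene (rows) on each array (columns, grouped by genotype) minus the mean of the 4 WT arrays, on the log2 scale, as colour and rounded number. The columns of amiNAA10 replicate 2 and exon 2 replicate 4 are the strongest of their genotypes, and on every array of the 3 lines NDA1 is below its WT mean while AOX1A, AOX1D, BCS1, NDA2, NDB2 and NAC017 are above theirs.

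The rising genes also varied together between arrays of one genotype. Of AOX1A, AOX1D, BCS1, NDA2, NDB2 and NAC017, 6 of 6 were highest on replicate 2 among the amiNAA10 arrays and 6 of 6 lowest on replicate 3. In the exon 2 line 6 of 6 were highest on replicate 4 and 5 of 6 lowest on replicate 1. In WT 5 of 6 were highest on replicate 4, and in the exon 1 line 4 of 6 on replicate 2. NDA1 took its lowest value on amiNAA10 replicate 2, exon 1 replicate 2 and exon 2 replicate 4. In WT the lowest NDA1 value was on replicate 3 (7.71) and not on replicate 4 (7.77). The mean of the 6 genes over their WT means was 2.25 on exon 2 replicate 4 and 0.53 on exon 2 replicate 1.

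Other signals moved along with this spread, and their part in it was not tested. The mean of 6 salicylic acid output genes was 7.08 on exon 2 replicate 4 and 4.76 to 5.39 on the other exon 2 arrays. It was 6.66 on amiNAA10 replicate 2, against 5.81 to 5.98 on the other amiNAA10 arrays, and 3.86 on WT replicate 4, against 3.40 to 3.59. In the exon 1 line it was 6.62 on replicate 2 and 6.65 on replicate 3, against 5.76 and 5.38 on replicates 1 and 4. The order was not the same throughout: amiNAA10 replicate 3, lowest for the rising genes, had the next highest salicylic mean of its genotype (5.98). All 6 of these genes rose in amiNAA10 and in the HYPK lines, with PR5 up by 3.63 and 3.74 and EDS1 by 1.76 and 1.47. Of 6 leaf senescence genes 5 rose in each, with SEN1 up by 2.73 and 2.21 and SAG21 by 2.74 and 1.61. Beside these counts, 15.4% of all probe sets were called as higher in amiNAA10 and 11.2% in the HYPK lines. On the first principal component of all probe sets WT replicate 4 lay at 50.1 and the other WT arrays between 62.1 and 66.0. Exon 2 replicate 4 lay at -44.3 and the other exon 2 arrays between -1.87 and 15.5. In amiNAA10 replicate 2 lay at -57.4 and the other arrays between -34.9 and -30.9. Exon 1 replicates 2 and 3 lay at -32.5 and -27.2, and replicates 1 and 4 at -0.01 and -5.34. The spread within genotypes was thus also seen over all probe sets, not only in these genes.

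Markers of leaf cell types moved too, and in these bulk samples fewer cells of a type and less RNA per cell cannot be told apart. In amiNAA10, 3 of 4 mesophyll, 3 of 3 vascular and 3 of 4 guard and myrosin cell markers fell, and in the HYPK lines 1, 2 and 3 of them. Beside these counts, 15.4% of all probe sets were called as lower in amiNAA10 and 11.5% in the HYPK lines. The mesophyll list mean was 10.6 on every WT array and 9.97 to 10.2 in amiNAA10; it was 10.4 to 10.6 in the exon 1 line and 10.3 to 10.6 in the exon 2 line. The vascular mean was 7.22 to 7.37 in WT, 6.08 to 6.26 in amiNAA10, 6.69 to 6.86 in the exon 1 line and 6.65 to 6.80 in the exon 2 line. The guard and myrosin cell mean was 7.32 to 7.69 in WT, 6.75 to 6.93 in amiNAA10, 6.66 to 6.91 in the exon 1 line and 6.89 to 7.13 in the exon 2 line. Of 3 epidermal markers 1 rose in amiNAA10, PDF1 (3.39), with a list median of -0.02, and of 3 root markers 1 rose, PYK10 (1.86), with a list median of -0.17. Called as higher in amiNAA10 were 15.4% of all probe sets. Both markers varied widely between amiNAA10 arrays, PDF1 from 3.54 to 6.55 and PYK10 from 2.17 to 5.03. In the mean of both HYPK lines no epidermal or root marker was called. Whether any of these shifts bears on the 10 genes was not tested.

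The genes nearest in pattern were sought for each of the 6 genes that changed at least 2-fold in amiNAA10 or in the HYPK lines. Likeness was the mean absolute distance over 16 arrays after subtracting each gene's WT mean, with gene symbols from the reference table. For BCS1 the nearest were EDA39 (0.10), NDB2 (0.16) and COBL5 (0.18), and for NDB2 they were EDA39 (0.15), BCS1 (0.16) and BI1 (0.17), the Bax inhibitor of the endoplasmic reticulum. BCS1 and NDB2 were thus each among the other's 3 nearest of all genes with a symbol, and the closest pair among the 10. For NDA1 the nearest were PnsB1 (0.12) and PnsB4 (0.12), subunits of the chloroplast NDH complex, and GBSS1 (0.13), a starch synthase. For AOX1A they were MKK4 (0.21), FDH (0.21), the mitochondrial formate dehydrogenase gene, and CBP60G (0.21), which promotes salicylic acid synthesis. For NDA2 they were PES2 (0.21), GSR 1 (0.22) and CNGC13 (0.23). For AOX1D they were CSLG2 (0.47), CCOAMT (0.48) and RLP52 (0.49). The distance is not scaled to how far a gene varies, and AOX1D had the widest range of the 10 genes (4.53). Its larger distances therefore need not mean a poorer match.

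Beyond the 10 genes, 66 genes of the wider pathway were read from 7 lists. In amiNAA10 22 rose and 4 fell, 39.4% beside 30.7% of all probe sets, with a median difference of 0.24. In the HYPK lines 13 rose and 4 fell, 25.8% beside 22.7%, with a median of 0.06; without WT replicate 1 the count of 17 was 11. Between the HYPK lines and amiNAA10, 1 was higher and 9 lower in the HYPK lines, 15.2% beside 10.2% of all probe sets (5.34% higher, 4.9% lower); this count of 10 was 6 without amiNAA10 replicate 2 and 5 without amiNAA10 replicate 3.

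**Figure D4:**
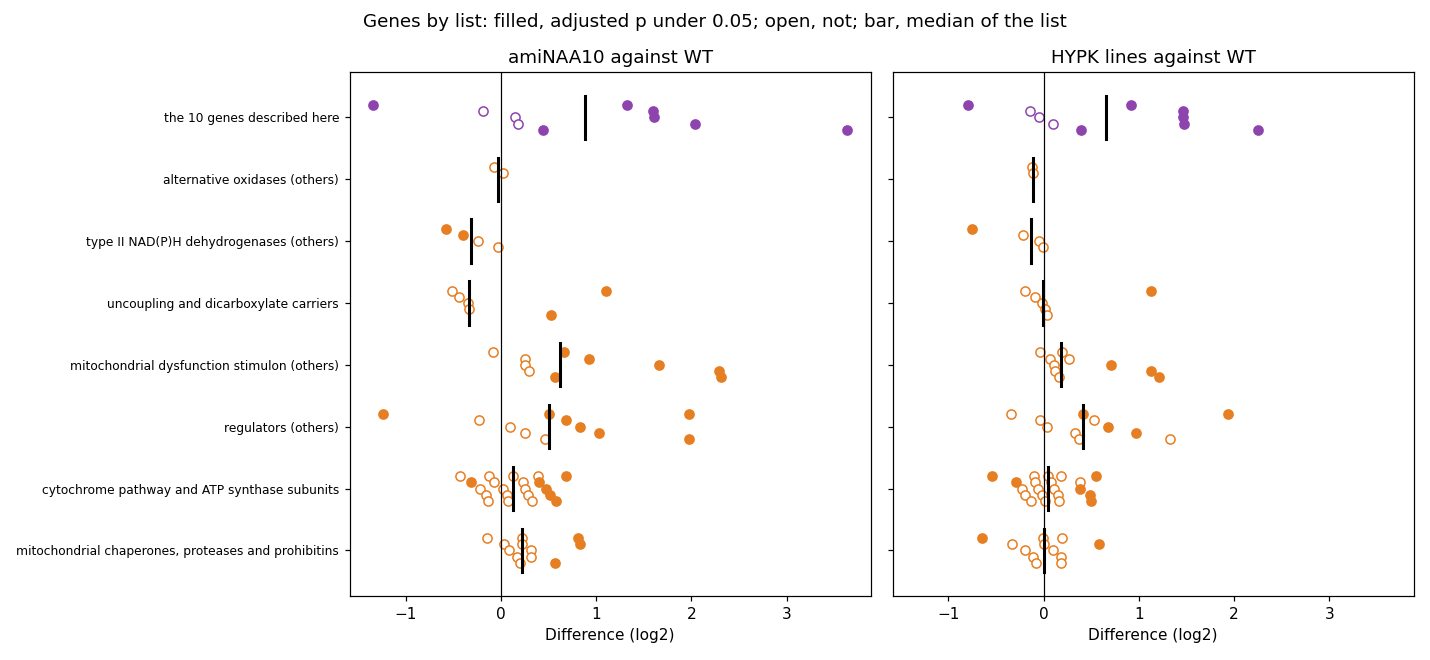
Differences from WT on the log2 scale (x axes) in amiNAA10 and in the mean of both HYPK lines for the 10 genes and for 7 lists of other genes of the wider pathway (y axis). Filled points have an adjusted p under 0.05, open points do not, and bars are list medians; the stimulon genes outside the 10 have a median of 0.62 in amiNAA10 and 0.18 in the HYPK lines.

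Of 10 other genes of the mitochondrial dysfunction stimulon, 6 rose in amiNAA10 and 3 in the HYPK lines, and none was called as lower. These are 60% and 30% of the list, beside 30.7% and 22.7% of all probe sets. Besides AT2G41730, the genes HSP23.5, AT12CYS-2, UGT74E2, AT2G04050, AT2G04070 and AT2G32020 had WT means under the dim bound, so a fall could not be read for them. AT12CYS-2, UGT74E2 and AT2G32020 stayed under it in every genotype. AT2G41730 rose by 2.31 (SE 0.29, adjusted p = 2.23e-05) in amiNAA10 and by 0.71 (SE 0.25, adjusted p = 0.049) in the HYPK lines. Its WT mean was under the dim bound, so these changes may be lower bounds. In the exon 1 and exon 2 lines its means of 1.84 and 2.18 also lay near that bound of 1.83. Their arrays overlapped with WT, so the rise in the HYPK lines is uncertain. The AT2G41730 difference between the HYPK lines and amiNAA10 was itself called (-1.60, SE 0.25, adjusted p = 0.000965), as were those of 3 further genes of the list, all lower in the HYPK lines. Called in that comparison was thus 40% of the list, beside 10.2% of all probe sets, of which 4.9% were lower. AT5G43450 was higher in both, with 1.66 for amiNAA10 (SE 0.21, adjusted p = 3.03e-05) and 1.22 for the HYPK lines (SE 0.19, adjusted p = 0.000278).

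Of 11 other regulators, 6 rose and 1 fell in amiNAA10, and 4 rose in the HYPK lines. That is 63.6% and 36.4% of the list, beside 30.7% and 22.7% of all probe sets. NAC016, the neighbour of NAC017 on chromosome 1 and its close relative, was at 1.98 ± 0.20 (SD, n = 4) in WT and 3.95 ± 0.33 (SD, n = 4) in amiNAA10. It rose by 1.98 (SE 0.26, adjusted p = 3.81e-05) there and by 1.93 (SE 0.23, adjusted p = 3.22e-05) in the HYPK lines, while NAC017 rose by 0.44 and 0.39. Whether the probes of these related genes hold shared sequence is not known here. MYB29, a regulator of aliphatic glucosinolates, fell by 1.24 (SE 0.21, adjusted p = 0.00035) in amiNAA10, while its HYPK difference of -0.35 was not called (adjusted p = 0.204). The difference of 0.90 between HYPK lines and amiNAA10 was called for MYB29 (SE 0.19, adjusted p = 0.00617).

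Of 21 subunits of the cytochrome pathway and ATP synthase, 5 rose and 1 fell in amiNAA10 and 4 rose and 2 fell in the HYPK lines, with medians of 0.12 and 0.05. That is 28.6% of the list in each, beside 30.7% and 22.7% of all probe sets. SDH1-1, the flavoprotein subunit gene of succinate dehydrogenase, rose by 0.68 (SE 0.13, adjusted p = 0.000652) and 0.48 (SE 0.11, adjusted p = 0.00486). The list member AT5G13440 rose by 0.51 (SE 0.10, adjusted p = 0.00135) and 0.55 (SE 0.09, adjusted p = 0.000511). AT5G13430, listed under the same gene name, had a mean slightly below WT in each line. Its WT arrays (4.14 to 4.32) overlapped with those of the exon 1 line (3.93 to 4.23) and the exon 2 line (3.77 to 4.31). It was at 4.23 ± 0.10 (SD, n = 4) in WT, 4.01 ± 0.06 (SD, n = 4) in amiNAA10 and 4.03 in each HYPK line.

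Mitochondrial chaperone, protease and prohibitin genes gave 3 rises in 12 in amiNAA10 and 1 rise and 1 fall in the HYPK lines. Called were thus 25% and 16.7% of the list, beside 30.7% and 22.7% of all probe sets. The chaperone gene mtHsc70-1 (AT4G37910) rose in amiNAA10 by 0.83 (SE 0.14, adjusted p = 0.000233). In the HYPK lines it stood at the WT level (6.84 in both groups, SE of the difference 0.12, adjusted p = 0.994), a gap that was called directly (-0.83, adjusted p = 0.000539). The prohibitin gene PHB1 rose in both, by 0.81 (SE 0.20, adjusted p = 0.00586) and 0.58 (SE 0.18, adjusted p = 0.0248). Of 6 uncoupling and dicarboxylate carriers 2 rose in amiNAA10 and 1 in the HYPK lines. These are 33.3% and 16.7% of the list, beside the same 30.7% and 22.7% of all probe sets. DIC1 (UCP5 in the reference table), a dicarboxylate carrier gene, rose by 1.10 (SE 0.28, adjusted p = 0.0063) and 1.13 (SE 0.24, adjusted p = 0.00327). The uncoupling protein gene PUMP1 rose in amiNAA10 by 0.52 (SE 0.19, adjusted p = 0.0411), while its HYPK difference of 0.03 was not called (adjusted p = 0.918).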

How the data were processed

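The deposited log2 values, 1 for each probe set on each array, come from RMA run by the authors, per the submitters' processing notes. Not given in the sources used here: array design, software version and probe annotation. Per the labels' protocols, biotin-labelled cRNA from total leaf RNA was hybridised. RMA forces arrays to one distribution (sorted columns differed by at most 0.0019), so a shift of total RNA would not be seen. Arrays have no read depth, and the 4 arrays per genotype limit the precision.

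All 16 arrays entered 1 limma model (limma 3.58.1, R 4.3.3) with a mean per genotype, and 6 contrasts were tested two-sided by lmFit and eBayes, with Benjamini-Hochberg adjustment over all 27826 probe sets and no filter. The procedure was tested on simulated data. The 10 genes and the lists were chosen with earlier results of these data known; list membership comes from general knowledge of these pathways. Each list names its 2 genes with the smallest adjusted p in amiNAA10 or in the HYPK lines against WT. Symbols and neighbours come from RefSeq's TAIR10.1 table, in which UPOX, NAA10 and HYPK carry only locus codes. Alternatives were a filter on dim probe sets, other priors, only the genotypes compared, array weights, reference-gene scaling, the replicate number as a block and leaving out each array. Whether same-numbered samples are paired was checked by the correlation of their deviations from genotype means, which ran from -0.289 to 0.302 over 24 pairs.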

Additional observations from a re-analysis of the deposited data

Results flagged for a closer look

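In 4 of 40 combinations of gene and genotype 1 array lay far from the other 3, by a criterion that chance meets in about 1 of 20 (5%) groups. BCS1 was at 3.98 on exon 2 replicate 4, with the next array at 3.06. NDA1 was at 6.48 on exon 1 replicate 2, with the next at 7.04. NDA2 was at 4.89 on amiNAA10 replicate 2, with the next at 4.30. UPOX was at 2.87 on amiNAA10 replicate 1, with the next at 2.65.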

How the results depend on the processing

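For amiNAA10 against WT 7 of the 10 genes were called under each setting that kept all arrays, and 6 to 7 when 1 array was left out. For the HYPK lines against WT the counts were 7 and 5 to 7, and for the exon 1 line 6 to 7 and 5 to 7. For the exon 2 line 5 were called, 3 with only the genotypes compared, and 2 to 6 when 1 array was left out; these fits hold fewer arrays. Between the HYPK lines and amiNAA10 0 were called, 1 with the intensity trend and robust prior (NDA1), 2 with array weights (AOX1D and NDA1), and 0 to 2 with 1 array left out. Between the exon 1 line and the exon 2 line 0 were called under every setting. No called difference changed sign. Scaling to 10 reference genes shifted the median of all probe sets by -0.04 in amiNAA10 and -0.07 in the HYPK lines and changed no call of the 10 genes; nor did leaving out the dimmest 30% of probe sets, which drops AOX1C. With the replicate number as a block, 7, 7, 6, 5, 0 and 0 genes were called in the 6 comparisons, as without it; 5 of 24 same-numbered pairs of arrays correlated above 0.1 and 6 of 16 arrays correlated best with an array of their own number, so the numbers were not taken to pair samples. The remaining limits are the 4 arrays per genotype, the lack of a measured background for dim genes such as AOX1C, AOX1D, BCS1 and AT2G41730, and WT arrays shared by all comparisons with WT.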
